A study of Mus musculus with 6 samples.

Results

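Cholesterol storage and efflux was followed through 9 genes, Soat1, Nceh1, Lipa, Npc1, Npc2, Abca1, Abcg1, Nr1h2 and Scarb1, out of 46603 gene identifiers counted in each library and 15828 genes that could be tested. The genes were chosen by role, as those that make cholesterol esters, break them down, release cholesterol from the lysosome and send it out of the cell. Earlier results of these data were known when they were chosen. Soat1 and Nceh1 were in addition selected on the rise they show in these same libraries, so their values are given as a description without a test. The RNA was that of abdominal (visceral) fat from untreated C57/Bl6 mice at an age of 18 months. There were 3 libraries from mice lacking nuclear myosin 1 (NM1 KO), a motor protein of the nucleus that acts in transcription, and 3 from wild-type mice (WT). The labels do not give the sex, how the knockout was made or whether a replicate stands for an animal of its own. The p-values therefore rest on the spread among these samples only, and part of it may be technical. The tissue is a mixture of adipocytes, macrophages, endothelial cells and other cells, and the label of the gene set names macrophages while the RNA is that of the whole tissue.

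Macrophages take up cholesterol with lipoproteins and with the remains of dead cells. In the lysosome, acid lipase frees cholesterol from its esters, and the NPC2 and NPC1 proteins pass it on to the rest of the cell. Cholesterol beyond what membranes need is either esterified again by SOAT1 in the endoplasmic reticulum and kept in lipid droplets, or handed to apolipoproteins and high-density lipoprotein by the transporters ABCA1 and ABCG1. The liver X receptors, which sense oxysterols, turn on the genes of both transporters. In adipose tissue, macrophages that surround dying adipocytes are known to fill with lipid and to raise genes of lysosomal lipid handling.

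Library totals lay between 27525446 and 33537818 counts in NM1 KO and between 24677758 and 31228723 counts in WT, and the smallest count of any of the 9 genes in any library was 466. Myo1c, the gene that encodes nuclear myosin 1 together with other myosin 1c isoforms, lay at 452, 697 and 551 counts per 1000000 counts (CPM) in NM1 KO and at 801, 759 and 801 CPM in WT. The groups did not overlap for Myo1c, and its log2 fold change of -0.47 ± 0.17 (SE) was not called (adjusted p = 0.151). It was called when NM1 KO replicate 2 was left out, at -0.65 (0.0391), and by limma-voom, at -0.54 (0.039). A count per gene adds up all isoforms, so it does not check the loss of the nuclear one. All of the 10 adipocyte and 12 macrophage markers examined had counts, with the sums given below. NM1 KO replicate 1 stood apart in a marker list of T and B cells, whose 7 genes summed to 198 CPM there, against 32.1 and 36.6 CPM in NM1 KO replicates 2 and 3 and 47.6 to 79 CPM in WT. Below, log2 fold changes are NM1 KO over WT with their SE, means are given ± SD with n = 3 per group, and called genes are those with an adjusted p under 0.05 in edgeR's quasi-likelihood test over all 15828 genes.

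The bases just before the start sites are shown for Soat1, Nceh1, Lipa and Abca1, the 4 genes of the 9 that were highest in NM1 KO relative to WT, because control of these genes by liver X receptors, sterol sensors and myeloid factors is usually sought there. Each run holds the 250 bases before the RefSeq start site on the GRCm38.p6 build, read 5′ to 3′ on the strand of the gene. Capitals mark the motifs found. The runs are chr1:156474329-156474578 on the minus strand for Soat1, chr3:27182754-27183003 on the plus strand for Nceh1, chr19:34527475-34527724 on the minus strand for Lipa and chr4:53159896-53160145 on the minus strand for Abca1.
Soat1: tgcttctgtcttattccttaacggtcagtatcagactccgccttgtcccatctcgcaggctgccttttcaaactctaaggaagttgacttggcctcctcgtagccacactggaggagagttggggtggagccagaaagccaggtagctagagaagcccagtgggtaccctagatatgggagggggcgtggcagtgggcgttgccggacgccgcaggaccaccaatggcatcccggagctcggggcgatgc
Nceh1: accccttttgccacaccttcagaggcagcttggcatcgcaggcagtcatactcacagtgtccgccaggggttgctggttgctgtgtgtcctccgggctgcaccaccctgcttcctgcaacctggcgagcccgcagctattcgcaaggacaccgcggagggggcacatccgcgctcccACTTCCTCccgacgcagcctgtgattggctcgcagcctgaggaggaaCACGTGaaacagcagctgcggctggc
Lipa: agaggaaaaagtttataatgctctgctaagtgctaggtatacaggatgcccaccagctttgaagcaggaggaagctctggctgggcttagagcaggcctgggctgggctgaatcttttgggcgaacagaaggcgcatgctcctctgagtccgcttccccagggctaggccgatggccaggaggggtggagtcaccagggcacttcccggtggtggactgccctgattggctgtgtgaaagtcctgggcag
Abca1: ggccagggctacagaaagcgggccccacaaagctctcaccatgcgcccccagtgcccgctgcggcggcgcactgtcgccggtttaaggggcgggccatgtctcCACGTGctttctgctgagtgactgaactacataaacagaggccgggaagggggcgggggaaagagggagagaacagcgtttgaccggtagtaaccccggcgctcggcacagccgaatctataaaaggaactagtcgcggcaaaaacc

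The motif search covered both strands of windows of 300 bases, from 250 before to 50 after the start, which RefSeq gave for 32851 start sites and which were used for 6 of the 9 genes (the 4 above, Npc2 and Nr1h2). The E-box CACGTG, bound by factors such as those that control lysosomal genes and by sterol regulators, was in the windows of Nceh1, at bases -26 to -21, and of Abca1, at bases -147 to -142. It was in 7.15% of all windows. The motif GAGGAAGT of PU.1, a factor of myeloid cells, was found on the other strand of the Nceh1 window as ACTTCCTC at bases -73 to -66, and in 3.2% of all windows. The sterol response element TCACNCCAC was in 1.24% of all windows and in the windows of none of the 6 genes. The same held for a pair of AGGTCA half-sites 4 bases apart, the direct repeat that liver X receptors bind, which occurred exactly in 0.0152% of all windows and with up to 1 mismatch in each half-site in 1.75%. Pairs with more mismatches in a half-site were not counted. The Abca1 run holds such a pair, tgaccggtagtaaccc, which reads GGGTTA and CGGTCA on the other strand. The search thus does not show that a window lacks a site for these receptors. A match or its absence describes these letters in these windows only.

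Soat1 encodes the acyltransferase of the endoplasmic reticulum that joins cholesterol to a fatty acid for storage. The gene (ENSMUSG00000026600) spans bases 156424525 to 156474331 of the minus strand of chromosome 1 on GRCm38. It lay at 107, 78 and 75.7 CPM in NM1 KO replicates 1 to 3, against 41.1, 35.4 and 35.3 CPM in WT replicates 1 to 3. Every NM1 KO library was above every WT library, and NM1 KO replicate 1 was the highest. Means were 87.1 ± 17.7 CPM in NM1 KO and 37.3 ± 3.31 CPM in WT, a 2.34-fold difference and a log2 fold change of 1.22 ± 0.16. Because the tissue was sequenced whole, more cells that hold an RNA and more of that RNA per cell cannot be told apart, here and for every gene below.

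Nceh1 encodes a hydrolase of the endoplasmic reticulum that splits cholesterol esters outside the lysosome at neutral pH and is best known from macrophages. The gene (ENSMUSG00000027698) spans bases 27182965 to 27284608 of the plus strand of chromosome 3. Its levels were 97.6, 58.4 and 53.4 CPM in NM1 KO and 19.7, 20.2 and 18.7 CPM in WT. The WT libraries were nearly equal, while NM1 KO replicate 1 stood well above NM1 KO replicates 2 and 3. Means were 69.8 ± 24.2 CPM in NM1 KO and 19.6 ± 0.798 CPM in WT, a 3.57-fold difference and a log2 fold change of 1.84 ± 0.24. The ratio of Nceh1 to Soat1 counts within a library, which no scaling of the libraries can change, was 0.908, 0.749 and 0.705 in NM1 KO and 0.481, 0.571 and 0.53 in WT. RNA for the ester-splitting enzyme was thus more abundant relative to RNA for the ester-making one in each NM1 KO library than in any WT library.

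**Figure D1:**
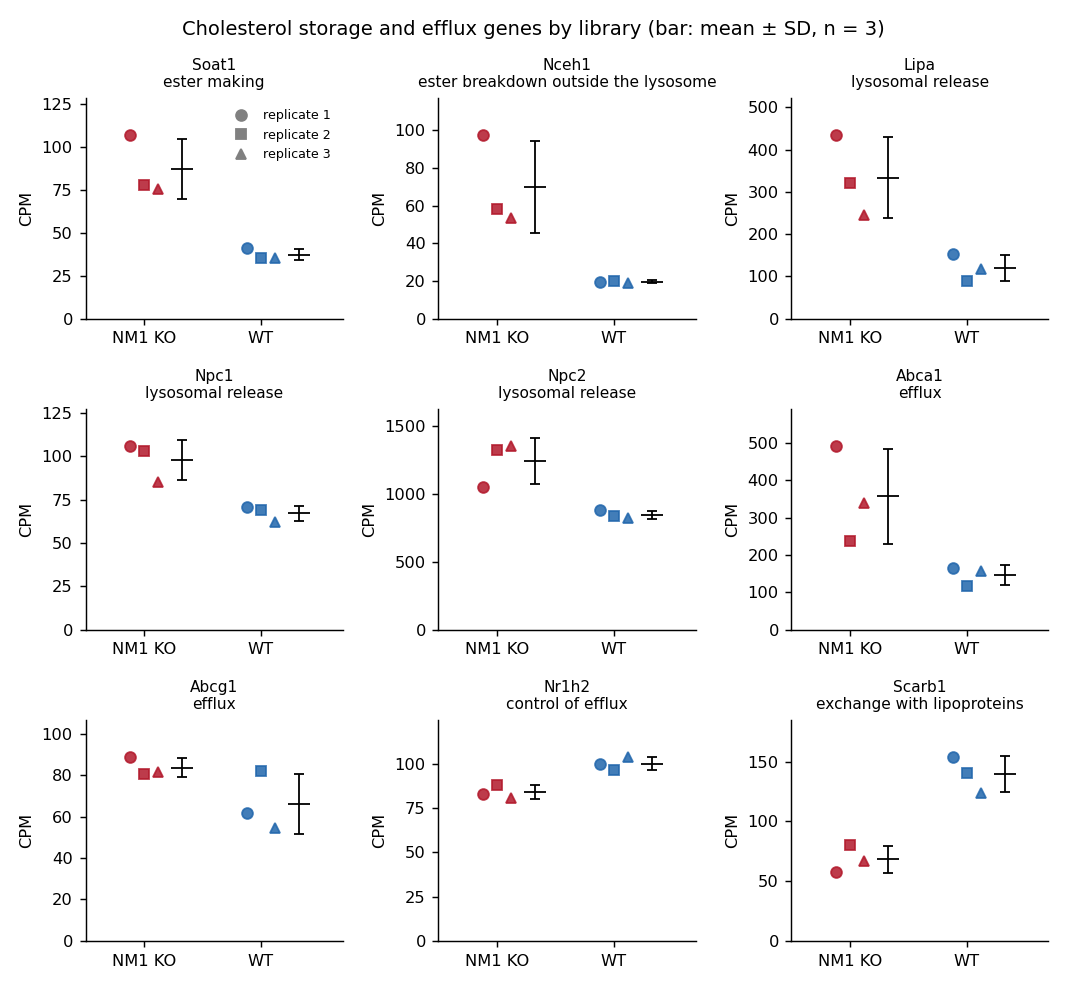
Levels of the 9 cholesterol genes in each library. Each panel is 1 gene with its role, the vertical axis is CPM from 0, points are libraries (NM1 KO left in red, WT right in blue, shape by replicate number) and the black bar is the mean ± SD of 3 libraries. Only for Abcg1 do the groups overlap, with WT replicate 2 at 82.1 CPM, and Nr1h2 and Scarb1 lie lower in NM1 KO.

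Of the lysosomal genes, Lipa rose, while Npc1 and Npc2 were higher by less and were not called. Lipa encodes lysosomal acid lipase, which frees cholesterol and fatty acids from the esters that reach the lysosome. The gene (ENSMUSG00000024781) spans bases 34492318 to 34527474 of the minus strand of chromosome 19. It lay at 435, 320 and 245 CPM in NM1 KO and at 152, 90.1 and 118 CPM in WT. The groups did not overlap, and NM1 KO replicate 3 and WT replicate 1 were the libraries nearest to each other. Means were 334 ± 95.9 CPM in NM1 KO and 120 ± 31.1 CPM in WT, a 2.77-fold difference (log2 fold change 1.47 ± 0.26, adjusted p = 0.0337). With 1 library left out the call was kept without NM1 KO replicate 2 (adjusted p = 0.0373) and lost in the other fits, at 0.0581 and 0.0644 when NM1 KO replicates 1 and 3 were left out in turn, and at 0.0659, 0.0967 and 0.13 when WT replicates 1, 2 and 3 were.

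Npc2 encodes the small soluble protein that takes cholesterol up inside the lysosome, and Npc1 the membrane protein that receives it and passes it out. Npc2 (ENSMUSG00000021242, chromosome 12, bases 84754562 to 84773152, minus strand) lay at 1048, 1320 and 1352 CPM in NM1 KO and at 879, 837 and 822 CPM in WT. It was the only one of the 7 genes with a positive change for which NM1 KO replicate 1 was the lowest NM1 KO library. The difference was 1.47-fold and was not called (log2 fold change 0.55 ± 0.14, adjusted p = 0.0726). Npc1 (ENSMUSG00000024413, chromosome 18, bases 12189692 to 12236400, minus strand) lay at 106, 103 and 84.9 CPM in NM1 KO and at 70.6, 68.8 and 62.3 CPM in WT. The groups of both genes stood apart without overlap. For Npc1 the difference was 1.46-fold (log2 fold change 0.54 ± 0.12, adjusted p = 0.0534). Once the trend of a library's counts on GC and length was removed, it was 0.21 on the log2 scale (adjusted p = 0.409). Exons of Npc1 share 601 bases with Rmc1 on the other strand and the antisense gene Gm15956, and no source used here gives the strand setting of the counting, so its level is uncertain.

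The lysosomal genes also differed relative to each other. The ratio of Lipa to Npc2 counts was 0.416, 0.243 and 0.181 in NM1 KO and 0.173, 0.108 and 0.144 in WT. The groups did not overlap, but NM1 KO replicate 3 exceeded WT replicate 1 by little, and NM1 KO replicate 1 was far above the rest.

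Of the efflux genes, Abca1 rose and its partner Abcg1 was not called. Abca1 encodes the transporter that loads cholesterol and phospholipid onto lipid-poor apolipoprotein A-I. The gene (ENSMUSG00000015243) spans bases 53030787 to 53159895 of the minus strand of chromosome 4. It lay at 492, 238 and 340 CPM in NM1 KO and at 165, 117 and 157 CPM in WT. In CPM, though not as a ratio, the highest and lowest NM1 KO libraries differed by more than the group means did. Means were 357 ± 128 CPM in NM1 KO and 146 ± 25.8 CPM in WT, a 2.44-fold difference (log2 fold change 1.29 ± 0.27, adjusted p = 0.0485). This call was kept in 4 of 14 other settings, against 9 for Lipa and 10 for Scarb1, with adjusted p between 0.000226 and 0.152 and the same sign in each. With 1 library left out it was kept without NM1 KO replicate 2 (0.0173) and lost without NM1 KO replicate 1 (0.0758) or 3 (0.117) and without WT replicate 1 (0.11), 2 (0.133) or 3 (0.152). It was also lost with RLE size factors (0.0547), with library totals alone (0.0573), with no filter on low counts (0.0529), with a filter at 1 CPM (0.0518) and with the GC and length correction, where the log2 fold change was 1.00 (0.0614).

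Abcg1 encodes the half-transporter that moves cholesterol onto high-density lipoprotein particles. The gene (ENSMUSG00000024030) spans bases 31057675 to 31117988 of the plus strand of chromosome 17. It lay at 88.8, 80.8 and 81.5 CPM in NM1 KO and at 61.9, 82.1 and 54.3 CPM in WT. The NM1 KO libraries were close together, and WT replicate 2 lay among them, which made Abcg1 the one gene of the 9 whose groups overlapped. Over all tested genes the groups did not overlap for 29.9%. The difference of 1.27-fold was not called (log2 fold change 0.34 ± 0.16, adjusted p = 0.249). The ratio of Abca1 to Abcg1 counts was 5.54, 2.94 and 4.17 in NM1 KO and 2.66, 1.42 and 2.88 in WT. The groups did not overlap in this ratio, by a margin of 2.94 in NM1 KO replicate 2 against 2.88 in WT replicate 3.

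Nr1h2 encodes liver X receptor beta, the more widely expressed of the 2 liver X receptors that switch on both transporter genes. The gene (ENSMUSG00000060601) spans bases 44549616 to 44553951 of the minus strand of chromosome 7. It lay at 83.1, 88.3 and 80.9 CPM in NM1 KO and at 99.8, 96.8 and 104 CPM in WT. All 3 NM1 KO libraries were below all 3 WT libraries, and the spread within either group was under 4 CPM (SD). The log2 fold change of -0.26 ± 0.092 was not called (adjusted p = 0.153), and it was -0.041 (adjusted p = 0.825) after the GC and length correction. The gene has the highest GC content of the 9, at 60.6% of the bases of its longest transcript. Its partner Nr1h3, liver X receptor alpha, stood at -0.28 on the same scale (adjusted p = 0.168). Both receptor genes thus had small negative values, and neither was called.

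Scarb1 was the one gene of the 9 that fell, where 1.47% of all tested genes were called lower. It encodes the scavenger receptor SR-BI, which exchanges cholesterol with high-density lipoprotein in both directions and is found on adipocytes and endothelial cells as well as on macrophages. The gene (ENSMUSG00000037936) spans bases 125277087 to 125341094 of the minus strand of chromosome 5. It lay at 58, 80.5 and 67 CPM in NM1 KO and at 154, 141 and 124 CPM in WT. Every NM1 KO library was below every WT library. Means were 68.5 ± 11.3 CPM in NM1 KO and 140 ± 15.3 CPM in WT, 0.491-fold (log2 fold change -1.03 ± 0.15, adjusted p = 0.0231). The call was kept without NM1 KO replicate 1 or 2 and lost without NM1 KO replicate 3 (0.0785) and without WT replicate 1 (0.0697), 2 (0.0718) or 3 (0.0859), while the log2 fold change stayed between -1.24 and -0.90 in all 14 other settings. The ratio of Soat1 to Scarb1 counts was 1.85, 0.97 and 1.13 in NM1 KO and 0.266, 0.251 and 0.285 in WT. Soat1 thus had more counts than Scarb1 in NM1 KO replicate 1 and about as many in NM1 KO replicates 2 and 3, whereas in WT Scarb1 had several times the counts of Soat1.

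Among the 7 genes not selected on their rise, Lipa and Abca1 were called higher and Scarb1 lower in NM1 KO. Over all genes tested, 4.25% were called, 2.79% higher and 1.47% lower. The median log2 fold change of these 7 was 0.54, beside -0.002 over all genes. The groups did not overlap for 6 of the 7, beside the 29.9% of all genes. The 7 were also chosen with earlier results of these data known, so setting them beside all genes is no independent comparison. Soat1 and Nceh1, whose choice fixed their direction, are left out of these counts. All 9 genes passed the filter on low counts. With 1 library left out, the 3 calls stayed at 3 when this was NM1 KO replicate 2, were 1 when it was NM1 KO replicate 1, and were 0 when it was NM1 KO replicate 3 or any one WT replicate. Over all genes, where 673 were called with all libraries, leaving out NM1 KO replicate 2 gave 1654 calls, leaving out replicate 1 gave 244 and leaving out replicate 3 gave 5. Without WT replicates 1, 2 and 3 in turn there were 37, 4 and 1. DESeq2 and limma-voom each called 5 of the 7, adding Npc1 and Npc2, but they also called 2193 and 1605 genes in all. The sign of all 9 was kept in all 14 other settings.

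**Figure D2:**
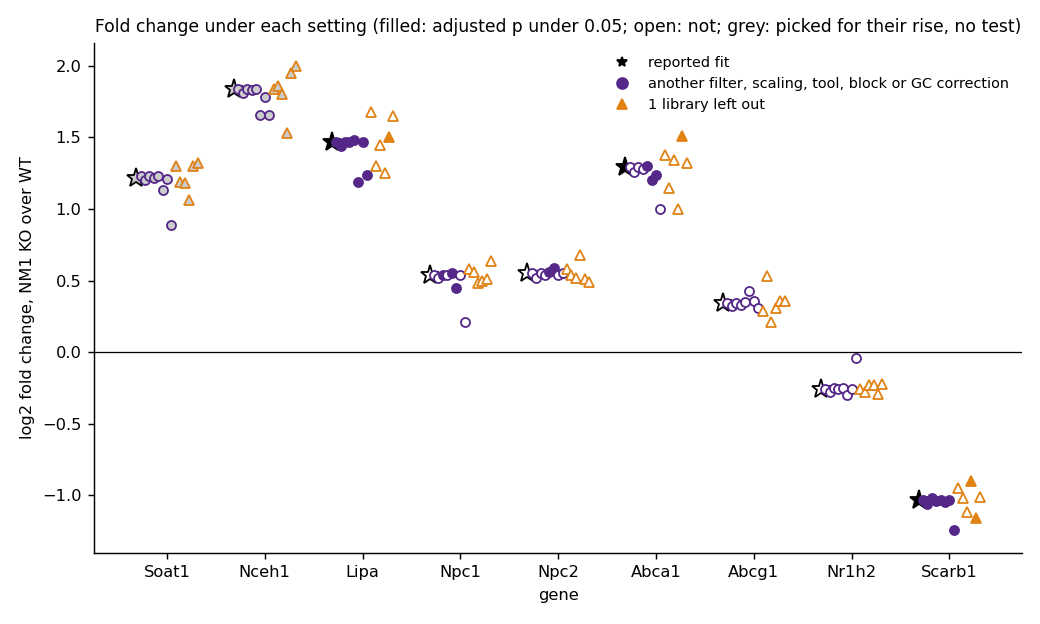
Log2 fold change, NM1 KO over WT, of each gene (horizontal axis) in the reported fit (star), in 8 other settings (circles) and with 1 library left out (triangles). Filled symbols have an adjusted p under 0.05, open ones do not, and Soat1 and Nceh1 are grey because they were selected on their rise. No gene changes sign, and Nr1h2 comes nearest to 0, at -0.041 with the GC and length correction.

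The 3 NM1 KO libraries did not contribute alike. Set against the WT mean on the log2 (CPM + 0.5) scale, NM1 KO replicates 1, 2 and 3 differed by 1.52, 1.06 and 1.02 for Soat1 and by 2.29, 1.56 and 1.43 for Nceh1. For Lipa the differences were 1.88, 1.44 and 1.06, and for Abca1 1.76, 0.72 and 1.23. NM1 KO replicate 1 was thus the highest library for each of these 4 genes, and it was also the lowest for Scarb1, at -1.25 against -0.79 and -1.05 in NM1 KO replicates 2 and 3. With NM1 KO replicate 1 left out, Nceh1 stood at 1.53 on the log2 scale, the lowest of its 14 other settings, and Soat1 at 1.06, where only the GC and length correction gave less, at 0.89. For Npc2 the order was the other way, with 0.31 in NM1 KO replicate 1 and 0.64 and 0.68 in NM1 KO replicates 2 and 3.

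**Figure D3:**
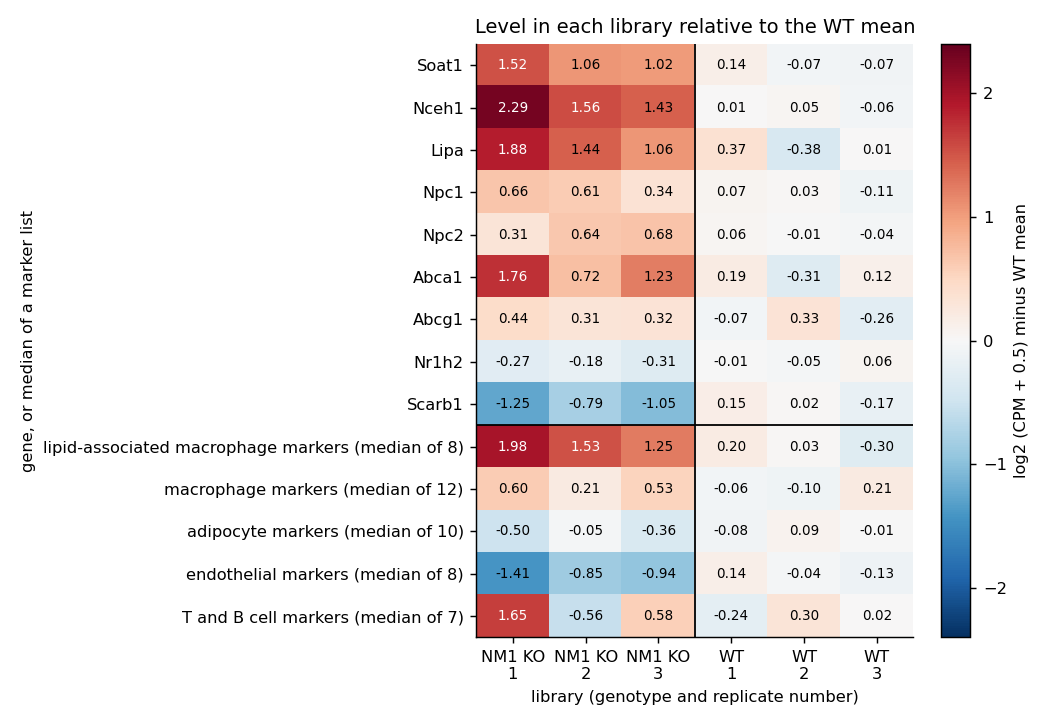
Log2 (CPM + 0.5) of each library minus the WT mean, for the 9 genes and, below the line, for the median gene of 5 marker lists. Columns are libraries, NM1 KO left of WT, and red is above and blue below the WT mean. NM1 KO replicate 1 is the highest library for Soat1, Nceh1, Lipa and Abca1 and for the lists of lipid-associated macrophages (1.98) and T and B cells (1.65), and the lowest for Scarb1 and the endothelial list (-1.41).

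Some markers of macrophages differed along with these genes, and their part in the results was not tested. Of 12 macrophage markers, 3 were called higher (Adgre1, Cd68 and Lyz2), beside 2.79% of all genes, 10 had a positive and 2 a negative log2 fold change, the median was 0.42, and the summed level was 6107, 5129 and 5173 CPM in NM1 KO and 3287, 2757 and 3712 CPM in WT. Cd68, a lysosomal glycoprotein of macrophages, rose by 1.52 ± 0.17 on the log2 scale (adjusted p = 0.0182), and Adgre1, the F4/80 antigen, by 1.34 ± 0.16 (0.0182). Csf1r, the receptor for the macrophage growth factor, stood at 0.38 (0.339) and was not called. The 2 markers with negative values, neither of them called, were the integrin Itgam at -0.16 (0.668) and the scavenger receptor Cd163 at -0.85 (0.276). Itgam, Fcgr1, Mertk, Aif1, C1qa and Cd163 had overlapping groups. Of 8 markers of lipid-associated macrophages, 4 were called higher (Trem2, Gpnmb, Cd9 and Lgals3), all 8 had positive values, the median was 1.55, and the sum was 16106, 9831 and 10844 CPM in NM1 KO and 7703, 7246 and 5888 CPM in WT. Trem2, a receptor for lipids on these macrophages, rose by 2.34 ± 0.30 on the log2 scale (0.0186). This second list includes genes that adipocytes also express, such as Cd9, Fabp5 and Lpl. Lpl was the largest part of the sum in every library, at 8547, 4879 and 6512 CPM in NM1 KO and 5171, 4861 and 4087 CPM in WT. Its groups overlapped and it was not called (0.50 ± 0.23 on the log2 scale, adjusted p = 0.245), so the sum mostly does not measure these macrophages alone. The calls of Cd68, Adgre1 and Trem2 were kept without NM1 KO replicate 1 or 2. All 3 were lost without NM1 KO replicate 3 (adjusted p 0.0575, 0.0616 and 0.0575 in that order of genes), without WT replicate 2 (0.0614, 0.0614 and 0.0704) and without WT replicate 3 (0.0859, 0.0898 and 0.0927), and that of Trem2 also without WT replicate 1 (0.0595).

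Counts of the cholesterol genes per count of a macrophage marker within the same library depended on the marker, and no test was made of them. Lipa over Cd68, the marker with the largest log2 fold change of the 12, was 1.07, 1.01 and 0.829 in NM1 KO and 1.11, 0.76 and 1.19 in WT, with overlap. Lipa over Csf1r was 0.926, 0.539 and 0.498 in NM1 KO and 0.331, 0.328 and 0.256 in WT, without overlap. Over the 12 markers, the Lipa ratio was higher in NM1 KO without overlap for 6 and overlapped for 6. Abca1 over Cd68 was 1.2, 0.749 and 1.15 in NM1 KO and 1.21, 0.983 and 1.57 in WT, and over Csf1r 1.05, 0.4 and 0.691 in NM1 KO and 0.359, 0.425 and 0.338 in WT, both with overlap. Its ratio was higher in NM1 KO without overlap for 5 of the 12 markers and overlapped for 7.

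Nceh1 and Soat1 were selected on their rise, which favours higher ratios in NM1 KO, so their ratios are a description only. No share over all genes is given for any of these ratios. The ratio of Nceh1 was higher in NM1 KO without overlap for 9 of the 12 macrophage markers and overlapped for Adgre1, Cd68 and Fcgr1. The ratio of Soat1 was higher without overlap for 6, overlapped for 5 and was lower for 1, Cd68, at 0.263, 0.246 and 0.256 in NM1 KO and 0.3, 0.299 and 0.354 in WT. Against the 8 markers of lipid-associated macrophages the ratios went both ways. That of Lipa was higher without overlap for 3 and lower for 4, and that of Abca1 higher for 1 and lower for 4. For Soat1 it was higher for 2 and lower for 4, and for Nceh1 higher for 4 and lower for 3. The markers of this list over which the ratio was lower were Trem2, Gpnmb, Lgals3 and Spp1 for Lipa, Abca1 and Soat1, and Trem2, Gpnmb and Spp1 for Nceh1.

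Endothelial markers were lower in NM1 KO, as Scarb1 was, and only for Tek did the groups overlap (log2 fold change -0.44, adjusted p = 0.345). Of 8 such markers, 5 were called lower (Cdh5, Egfl7, Emcn, Eng and Tie1), beside 1.47% of all genes, all 8 had negative values, the median log2 fold change was -1.01, and the sum was 347, 526 and 494 CPM in NM1 KO and 1081, 895 and 857 CPM in WT. The ratio of Scarb1 to Pecam1, an adhesion molecule of endothelial cells, was 0.782, 0.639 and 0.573 in NM1 KO and 0.655, 0.731 and 0.742 in WT, and the groups overlapped. Over the 8 endothelial markers the ratio of Scarb1 overlapped for 7 and was higher in NM1 KO without overlap for Egfl7. The ratio of Scarb1 to Adipoq, the adipocyte hormone adiponectin, was 0.0319, 0.0341 and 0.0302 in NM1 KO and 0.0643, 0.0553 and 0.0497 in WT, without overlap, and it was lower without overlap for 8 of the 10 adipocyte markers. It overlapped for Cfd and Retn, which had the most negative log2 fold changes of that list, at -1.63 and -1.24. The list was mixed, with 2 positive values, Lep at 1.16 and Pparg at 0.090, and 8 negative ones. Of the adipocyte markers edgeR called 0 of 10, where 5 had an unadjusted p under 0.05, DESeq2 called 5 and limma-voom 2. Their median was -0.27 and their sum 23204, 29746 and 25459 CPM in NM1 KO and 29852, 33074 and 34722 CPM in WT. The part of endothelial cells in the fall of Scarb1 was not tested.

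Of the other marker lists, 2 of 6 stromal progenitor genes (Lum and Pdgfra) were called higher, beside 2.79% of all genes, while the other 4 had negative values and the median was -0.099. Beside 1.47% of all genes, 1 of 6 mesothelial genes (Wt1, median of the list -0.48) and 1 of 6 smooth muscle and pericyte genes (Myh11, median of the list -0.58) were called lower, and all genes of both lists had negative values. Of 7 T and B cell genes edgeR called 0, with 2 at an unadjusted p under 0.05, 1 by DESeq2 and 0 by limma-voom, and NM1 KO replicate 1 was the highest NM1 KO library for 6 of them. In a list for lymph node and epididymal tissue, Defb20, Lcn5 and Adam7 were at 0 in every library, and Cr2 lay at 2.83, 0.244 and 0.437 CPM in NM1 KO and at 0.148, 0.448 and 0.321 CPM in WT.

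Levels per exonic length, in TPM (transcripts per 1000000, computed here from the counts), allow a rough comparison of the 9 genes with each other. The length takes in every annotated exon of a gene, whether or not the transcripts present use it, so the order between genes is approximate. In both genotypes Npc2 was the most abundant, at 741 ± 103 TPM in NM1 KO and 495 ± 32.3 TPM in WT. In NM1 KO it was followed by Lipa (160 ± 45.1 TPM), Abca1 (112 ± 39.9 TPM) and Nr1h2 (81.4 ± 3.28 TPM), whose neighbouring ranges overlapped. Nceh1 (43.1 ± 14.8 TPM) and Abcg1 (37.3 ± 1.88 TPM) overlapped next, and last came Soat1 (28.9 ± 5.77 TPM), Npc1 (28.1 ± 3.1 TPM) and Scarb1 (26.2 ± 4.27 TPM), which were not apart from each other. In WT the order after Npc2 was Nr1h2 (95.1 ± 4.74 TPM), then Lipa (56.7 ± 16.4 TPM), Scarb1 (52.3 ± 7.06 TPM) and Abca1 (44.9 ± 8.98 TPM), whose neighbouring ranges overlapped, then Abcg1 (28.7 ± 5.83 TPM) and Npc1 (18.9 ± 1.63 TPM), each apart from its neighbours, and then Soat1 (12.1 ± 1.47 TPM) and Nceh1 (11.8 ± 0.617 TPM), which overlapped. The order thus differed most for Scarb1, the lowest of the 9 in NM1 KO, and for Nceh1, the lowest in WT.

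**Figure D4:**
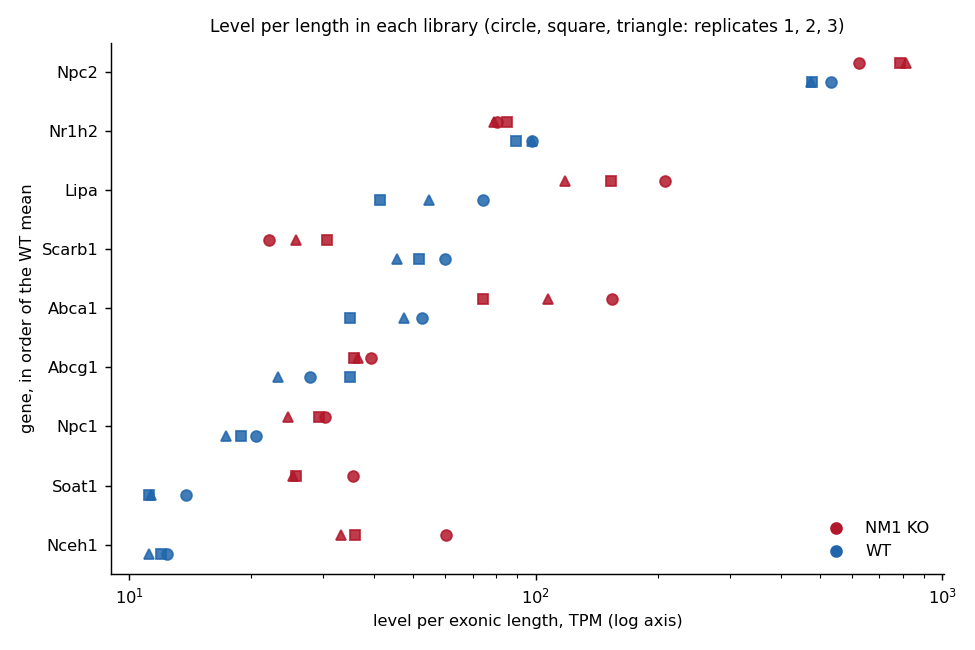
Level per exonic length of the 9 genes in each library, on a log axis in TPM. Genes run down the page in the order of their WT mean, with NM1 KO (red) above WT (blue) in each row and the shape giving the replicate number. Npc2 lies above all others in both groups, and Scarb1 is the called gene that lies to the left in NM1 KO.

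For each gene, the 3 genes of most similar pattern were sought among the 10996 tested genes that averaged 5 CPM or more, as those with the smallest root mean square difference of log2 (CPM + 0.5), centred on each gene's own mean, over the 6 libraries. For Soat1 they were Nckap1l (0.0721), Atp6v1a (0.0762) and Pik3cg (0.085), and for Nceh1 Ctss (0.146), Pik3ap1 (0.163) and Cd300c2 (0.171). Nckap1l encodes a subunit of the actin regulator WAVE in blood cells, Atp6v1a a subunit of the proton pump that acidifies lysosomes, and Ctss the lysosomal protease cathepsin S. For Lipa they were Lum (0.114), Hk3 (0.118) and Pik3ap1 (0.131), and for Abca1 Setbp1 (0.108), Rsbn1 (0.119) and Ly9 (0.131). For Npc1 the nearest were Ctsa (0.0363), which encodes the lysosomal enzyme cathepsin A, Abhd12 (0.0511) and Rftn1 (0.0568). For Npc2 they were Vcl (0.0669), Ptch1 (0.0726) and Sptan1 (0.0747), and for Abcg1 Nln (0.0637), Tex10 (0.0647) and Acyp2 (0.0694). Nr1h2 had the closest neighbours, Ttc4 (0.0187), Rnf25 (0.0295) and Khdc4 (0.03). The nearest to Scarb1 were Caskin2 (0.0886), Eng (0.0928), an endothelial receptor and one of the markers above, and Myh11 (0.101), the smooth muscle myosin. Soat1 and Nceh1 were selected on their rise in these libraries, so the genes nearest to them rise as well by construction. Roles are given for some of the neighbours only, and whether neighbours share a role was not tested.

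The neighbours above were picked as the nearest among 10996 candidates, so their closeness follows from that choice and is no measure for the 9 genes. None of the 9 genes was among the 10 nearest of another. Between them, the smallest differences were 0.192 for Npc1 and Abcg1, 0.203 for Npc1 and Npc2, 0.23 for Soat1 and Abca1 and 0.237 for Soat1 and Lipa, and Nceh1 and Scarb1 lay 1.45 apart. The ratio of Soat1 to Abca1 counts was accordingly much the same in both groups, at 0.219, 0.328 and 0.223 in NM1 KO and 0.249, 0.304 and 0.225 in WT, with overlapping ranges. Among the 10996 candidates some of the 9 still ranked near the top for another. Soat1 ranked 28 for Lipa and 42 for Abca1, and for Nceh1 Lipa ranked 49 and Soat1 66. Others were far down, such as, for Nceh1, Nr1h2 at 8334 and Scarb1 at 10740. Abcg1 ranked 824 for Npc1, although that pair had the smallest difference among the 9 genes. A rank also depends on how many other genes lie near a gene, so ranks for different genes are not on the same scale. With pseudocounts of 1 and 0.1 CPM every neighbour named in the paragraph above stayed within the 5 nearest. The 6 libraries are shared by all genes, so these are descriptions of pattern.

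The rest of the cholesterol pathway was read from 45 further genes in 5 roles, of which 43 were tested, 3 were called higher and 1 lower, beside 2.79% and 1.47% of all genes, and the median log2 fold change was -0.11. Of 9 uptake genes, Vldlr, a receptor for triglyceride-rich lipoproteins, was called higher, at 245, 170 and 170 CPM in NM1 KO and 108, 74.5 and 81.2 CPM in WT (log2 fold change 1.15 ± 0.20, adjusted p = 0.032). The other receptors were not called: the fatty acid translocase Cd36 was at 0.36 (0.347) and the scavenger receptor Msr1 at 1.15 ± 0.52 (0.237). Msr1 lay at 52.6, 17.5 and 24.7 CPM in NM1 KO and 6.69, 21.8 and 14.3 CPM in WT, so its groups overlapped.

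Of 6 tested genes of ester making, breakdown and the lipid droplet, edgeR called 0, with 4 at an unadjusted p under 0.05, 2 by DESeq2 and 0 by limma-voom, and the median was -0.69. Plin2, which coats lipid droplets in macrophages and other cells, was the one with a positive value, at 0.51 (0.193), and the hormone-sensitive lipase Lipe was at -0.31 (0.259). The other 5 of these 6 genes thus had negative values, none of them called. Of 13 genes that move cholesterol inside cells, Stard4, a soluble sterol carrier, was called higher at 0.74 ± 0.14 (0.0363), with 23.1, 18.3 and 19.5 CPM in NM1 KO and 11.8, 12.6 and 11.9 CPM in WT. Gramd1a, which carries cholesterol from the plasma membrane to the endoplasmic reticulum, was called lower at -0.61 ± 0.13 (0.0458), with 64.6, 66.9 and 62.6 CPM in NM1 KO and 94.3, 116 and 86.5 CPM in WT. Stard3, a sterol carrier of late endosomes, was at 0.021 (0.933), with a sign that depended on the setting.

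Of 7 tested genes of efflux, lipoprotein acceptors and oxysterols, edgeR called 0, with 1 at an unadjusted p under 0.05, 0 by DESeq2 and 2 by limma-voom. Apoe, the apolipoprotein secreted by macrophages and adipocytes, was at -0.11 (0.765), the phospholipid transfer protein Pltp at 0.44 (0.333), and the oxysterol-making enzymes Cyp27a1 and Ch25h at -0.34 (0.563) and -1.01 ± 0.83 (0.501). The sign of Apoe was positive with the GC and length correction, at 0.11, and that of Ch25h without WT replicate 2, at 0.16, and with limma-voom, at 0.12. Of 8 partners and further targets of the liver X receptors, Arl4c, a small GTPase, was called higher at 0.75 ± 0.15 (0.0409), with 32.7, 31.3 and 28.9 CPM in NM1 KO and 16.9, 16.5 and 22.1 CPM in WT. The targets Mylip, a ubiquitin ligase, and Srebf1, which drives fatty acid synthesis, had negative values that were not called, at -0.52 (0.152) and -0.71 (0.0579). Of these 8 genes 2 had a positive and 6 a negative value, with a median of -0.19.

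Genes of cholesterol synthesis, which the factor SREBP2 switches on, had mostly positive values. Of 17, 2 were called higher, beside 2.79% of all genes. A positive log2 fold change was seen for 15 and a negative one for 2, and the median was 0.55. Over all 15828 tested genes, 7874 values were positive and 7954 negative, with a median of -0.002. Msmo1, an enzyme that removes methyl groups from sterol precursors and one of the called genes, lay at 42.8, 40.1 and 39.5 CPM in NM1 KO and at 25.6, 27.8 and 26.5 CPM in WT (log2 fold change 0.61 ± 0.10, adjusted p = 0.0277). Its NM1 KO libraries were close together, and the groups did not overlap. Over these 17 and the 45 genes above, 60 were tested and 6 were called, beside 4.25% of all genes. The calls were 8 without NM1 KO replicate 2 and 0 without any other single library. With the GC and length correction 2 were called, and Msmo1 was then at 0.41 and no longer called.

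**Figure D5:**
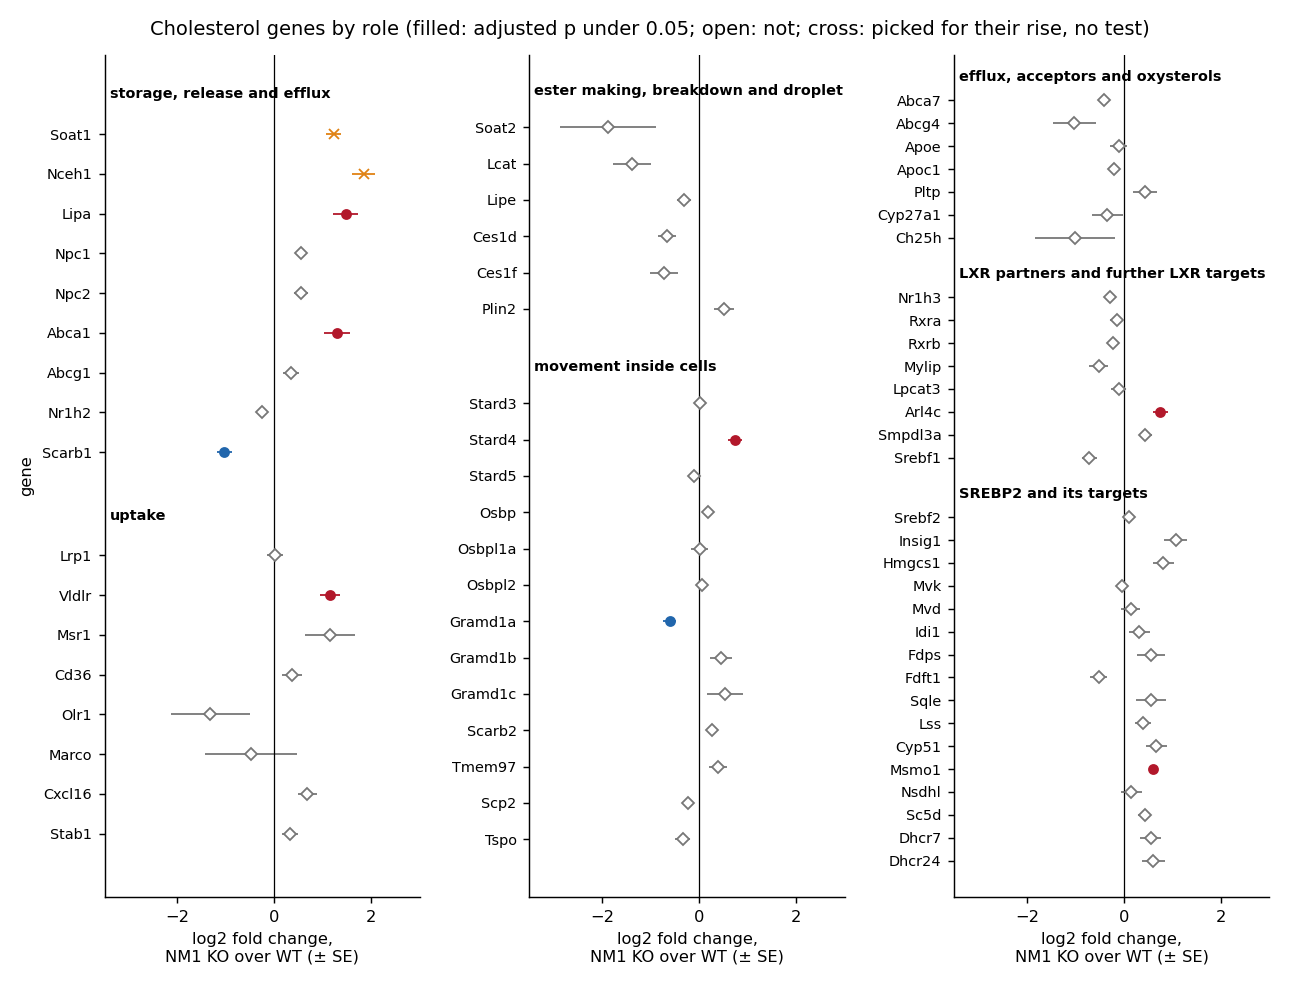
Log2 fold change, NM1 KO over WT, with its SE, for the 9 genes and other tested cholesterol genes by role, 1 gene per row. Filled circles have an adjusted p under 0.05 (red higher, blue lower), open diamonds do not, and crosses are Soat1 and Nceh1, selected on their rise. Nceh1 at 1.84 and Lipa at 1.47 lie farthest to the right, and most synthesis genes lie between 0 and 1.07.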

How the data were processed

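RNA was sequenced from visceral fat of 3 NM1 KO and 3 WT samples with the NEBNext Ultra II RNA kit on a NextSeq instrument, per the labels' protocols. The authors deposited 1 table of raw whole-number counts per library, with Ensembl identifiers and no normalization. The submitters' processing notes name Trimmomatic 0.36, FastQC, HISAT2 2.0.4, SAMtools 0.1.19, HTSeq and the GRCm38 build; the annotation and strand setting were not given in the sources used here. GENCODE M21 gave names, positions, exonic length and the GC content of the longest transcript for 46091 of 46603 identifiers. The 512 others held 0.0333% of counts, and 0 entries named no gene.

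edgeR 4.0.16 (R 4.3.3) was run two-sided with filterByExpr, TMM size factors, a robust quasi-likelihood fit and genotype as its single term. P-values were adjusted by Benjamini-Hochberg over 15828 genes, with a threshold of 0.05. The SE is the size of the log2 change over the square root of F. CPM uses TMM-scaled library sizes, and TPM was computed from counts and exonic length. Each library counted as 1 sample. No pair of libraries of a group agreed within sampling noise (chi-square per degree of freedom at least 35.9). This cannot show that they came from separate animals, since separate preparations of 1 tissue can also differ by more than that noise. The script was tested on simulated counts.

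The genes and lists were chosen with earlier results of these data known. Named were the 9 genes, 22 genes whatever their values, called members of the cholesterol lists with a mean of 1 CPM or more, the 3 genes most like each of the 9, and called members of the marker lists; some of these are not reported here. Alternatives were RLE size factors, library totals, no filter, a filter at 1 CPM in 3 libraries, DESeq2 1.42.0, limma-voom 3.58.1 with quality weights, a block for the replicate number, each library left out in turn, and an offset for GC content and length (natural splines, 5 degrees of freedom, per library). Promoter windows came from RefSeq; Abcg1, Scarb1 and Npc1 were not searched. Figures were drawn with matplotlib 3.10.9.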

Additional observations from a re-analysis of the deposited data

How the results depend on the processing

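All 9 genes kept their sign in all 14 other settings. Of 475 values of the 34 named genes that were not selected on their rise, 381 kept both direction and side of the threshold, 75 kept the direction but were no longer called, 12 became called and 7 changed sign, none of them called. Those 7 were Apoe with the GC and length correction (0.11), Stard3 with library totals (-0.006) and limma-voom (-0.047), Ch25h with limma-voom (0.12), and fits with 1 library left out, over which Stard3 lay between -0.043 and 0.098 and Ch25h between -1.66 and 0.16. Over all genes the count of 673 changed to 2193 with DESeq2, to 1605 with limma-voom and to 336 with the replicate number as a block, and leaving out 1 library gave 1 to 1654 calls. Of the 7 genes not selected on their rise 3 were called, 5 with DESeq2, 5 with limma-voom, 3 with the block and 0 to 3 with 1 library left out. Of the other cholesterol genes 6 were called, and 15 with DESeq2, 12 with limma-voom, 2 with the replicate block, 2 with the GC and length correction and 0 to 8 with 1 library left out. Leaving out a library leaves fewer samples; otherwise the cause was not tested. Deviations from the group means of same-numbered libraries correlated at -0.06, -0.0354 and 0.188, and not every library correlated best with its own number. With 3 libraries per group, this cannot settle whether the replicate numbers pair the samples. Of the block's 336 calls, 267 were among the 673.

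Log2 fold changes fell with GC content over 13933 protein-coding genes (Spearman's rho -0.37) and rose with exonic length (0.23), as a description across genes. The GC and length correction moved Soat1 to 0.89, Nceh1 to 1.66, Lipa to 1.24, Abca1 to 1.00, Scarb1 to -1.24, Npc1 to 0.21 and Nr1h2 to -0.041. How depth limits these results was not tested, since no setting changed it.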
